A study of Homo sapiens with 6 samples.

Results

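The CLK kinase genes are the 4 genes of the human CDC2-like kinase family, CLK1, CLK2, CLK3 and CLK4. They were found by symbol among the 58051 Ensembl genes of the count table, and all 4 passed the filter on low counts that left 16974 genes for testing. RNA abundance was measured by RNA-seq of total RNA in the human colorectal adenocarcinoma line DLD-1 with the genotype AID-NeonGreen-TPR. Both alleles of TPR, which encodes a protein of the nuclear pore basket, carried an auxin-inducible degron and NeonGreen at the endogenous locus, and the TIR1 ligase that auxin recruits was expressed from the RCC1 locus. All 6 cultures, controls included, carried these alleles and received Leptomycin B (LMB), an inhibitor of the export receptor CRM1. The LMB group (3 libraries) had 200 nM LMB for 3 h by the recorded incubation time, while the sample titles name 2 h. The LMB+auxin group (3 libraries) had the same LMB treatment and 1 mM auxin for 2 h. The comparison asks how TPR degradation changes RNA abundance in cells that also receive the CRM1 inhibitor. Libraries without LMB, with auxin alone, or with auxin in cells lacking the degron were not analysed here, so loss of TPR and auxin itself cannot be told apart. The degron acts on the protein, so RNA counts do not check that TPR was lost. Total counts per library ran from 28261903 to 35992425. In such bulk RNA, fewer cells that express a gene and less of its RNA per cell cannot be told apart. Of 9 epithelial marker genes of the colon, 8 passed the filter, and the summed CPM of all 9 (the count of a gene relative to the total of its library) was 7178 to 7290 in LMB libraries and 7125 to 7674 in LMB+auxin libraries. None of 6 markers of blood, stroma, endothelium or liver passed, and the summed CPM of all 6 was 1.31 to 2.02 and 1.37 to 1.69.

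CLK kinases phosphorylate SR proteins, the serine and arginine rich splicing factors, and release them from nuclear speckles for use in splicing. Their own transcripts are well known for detained introns, which stay unspliced in otherwise finished polyadenylated RNA that is held in the nucleus, and for a cassette exon whose skipping removes the kinase domain from the reading frame. Such RNA is a nuclear reserve that can be spliced later or degraded. A gene count from total RNA adds these forms together.

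In GENCODE 44 on GRCh38, CLK1 lies on chromosome 2 from 200853009 to 200864691 (minus strand), CLK2 on chromosome 1 from 155262868 to 155278491 (minus strand), CLK3 on chromosome 15 from 74598500 to 74645414 (plus strand) and CLK4 on chromosome 5 from 178602664 to 178630615 (minus strand). The MANE Select transcript, the agreed reference model of a gene, had 13 exons in each of the 4 genes. Exon 4 was coding in all of them and absent from at least 1 other annotated model of each gene. Introns 3 and 4, on either side of it, were covered over 100% of their bases by exons of other annotated models in all 4 genes, so that reads in these introns fall within annotated exons of the gene. The number of models classed as retained introns was 8 of 14 for CLK1, 0 of 7 for CLK2, 8 of 27 for CLK3 and 7 of 13 for CLK4. These models are from a later release than the Ensembl 87 models used for counting, and the table holds 1 value per gene, so spliced and intron-containing RNA could not be counted apart.

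Exon 4 of each gene is shown because it is the exon these kinases share as a cassette, with the ends of the 2 introns whose reads a gene count takes in. Bases are given 5′ to 3′ on the gene's strand, with exon bases in capitals and intron bases in lower case.
CLK1 chr2:200860115-200860240 (- strand): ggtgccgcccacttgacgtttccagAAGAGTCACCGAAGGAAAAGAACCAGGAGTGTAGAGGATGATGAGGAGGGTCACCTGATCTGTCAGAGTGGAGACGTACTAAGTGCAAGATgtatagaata
CLK2 chr1:155268698-155268820 (- strand): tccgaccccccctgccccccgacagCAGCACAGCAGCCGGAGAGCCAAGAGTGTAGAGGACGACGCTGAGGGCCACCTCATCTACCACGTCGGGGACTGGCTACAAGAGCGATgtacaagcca
CLK3 chr15:74622095-74622226 (+ strand): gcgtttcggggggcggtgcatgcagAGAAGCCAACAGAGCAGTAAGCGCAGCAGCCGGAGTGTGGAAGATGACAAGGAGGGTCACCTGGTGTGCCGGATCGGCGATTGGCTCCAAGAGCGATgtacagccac
CLK4 chr5:178617334-178617459 (- strand): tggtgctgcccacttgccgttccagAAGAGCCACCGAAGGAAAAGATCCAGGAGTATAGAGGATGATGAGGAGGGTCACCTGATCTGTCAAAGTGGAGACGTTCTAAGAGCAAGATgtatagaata
Exon 4 was 91 bases long in CLK1 and CLK4, 88 in CLK2 and 97 in CLK3. The CLK1 and CLK4 exons were identical at 85 of 91 positions, or 93.4%. Despite that likeness, no run of 50 bases was shared between the annotated exons of any pair of the 4 genes, so reads of that length or more could be assigned to 1 member.

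**Figure D1:**
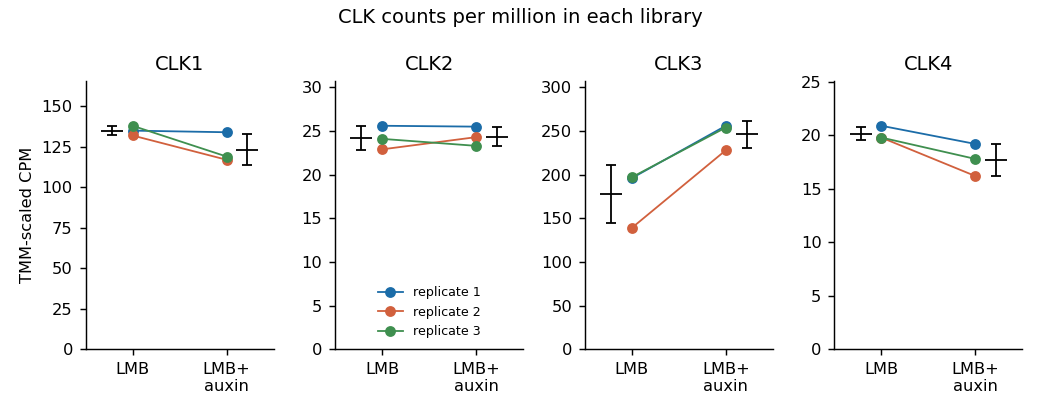
Level of each CLK gene in the 6 libraries, as CPM scaled by TMM factors (vertical axes from 0), with lines joining libraries of the same replicate number. Black marks are the mean ± SD of 3 libraries. CLK3 was higher with auxin on all 3 lines (139 to 197 CPM without auxin, 228 to 256 CPM with it), CLK4 was lower on all 3, and the CLK1 and CLK2 groups overlapped.

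CLK3 was the member with the clearest difference. Libraries 1, 2 and 3 of the LMB group had 196, 139 and 197 CPM, scaled by TMM factors, and libraries 1, 2 and 3 of the LMB+auxin group had 256, 228 and 254 CPM. All 3 LMB+auxin libraries were above all 3 LMB libraries, and LMB replicate 2 was the lowest. The mean went from 177 ± 33.0 to 246 ± 15.3 CPM (SD, n = 3), a difference of 68.5 CPM. In the edgeR quasi-likelihood fit without a replicate block, the fold change was 1.39, or 0.47 on the log2 scale (SE 0.12, 95% interval 0.19 to 0.75, unadjusted p = 0.00396), and the Benjamini-Hochberg adjusted p over all genes was 0.954, so CLK3 was not called. To be called, a gene had to reach an adjusted p below 0.05 and differ by 1.3-fold or more. The fit without the block called 0.00589% of the tested genes, and 4.37% had an unadjusted p below 0.05.

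Same-numbered libraries of both groups deviated together, so the replicate number was also fitted as a block. In that edgeR fit CLK3 had a log2 fold change of 0.49 (SE 0.05, 95% interval 0.39 to 0.58) and an adjusted p of 3.1e-12, and it was called higher. That SE draws on the spread of all genes and not on the 3 replicate differences of CLK3 alone. DESeq2 with the block gave an SE of 0.11 and an adjusted p of 0.00209. In edgeR with the block, 0.300% of all tested genes were called higher and 0.890% lower, and 19.9% had an unadjusted p under 0.05. Within replicate numbers 1, 2 and 3 the log2 difference was 0.38, 0.71 and 0.37, higher with auxin in 3 of 3 numbers. Such a direction in all 3 numbers was shown by 21.3% of genes upward and 20.5% downward. Groups that did not overlap were found upward in 4.89% of genes and downward in 6.63%. The exact permutation test of CLK3 over the 6 libraries gave p = 0.1 (two-sided), the smallest that 3 against 3 allows. By fitted log2 fold change without the block, CLK3 ranked 54 from the top of 16974 genes.

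The CLK3 value rested in part on single libraries. Without LMB replicate 2, the lowest library, the log2 fold change was 0.33 in edgeR without the block, under the fold threshold, and with both replicate 2 libraries left out of the fit with the block it was 0.38 with an adjusted p of 8.2e-06, still called. With both replicate 1 libraries left out of that fit, the log2 fold change was 0.53 and the edgeR adjusted p was 0.19, so the call was lost.

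CLK1, the member in which intron detention and autoregulation are best known, did not pass the test. In the LMB group, libraries 1, 2 and 3 had 135, 132 and 138 CPM, and libraries 1, 2 and 3 of the LMB+auxin group had 134, 117 and 119 CPM. Replicates 2 and 3 with auxin were below every LMB library, while replicate 1 with auxin lay within the LMB range. The mean without auxin was 135 ± 3.17 CPM and with auxin 123 ± 9.23 CPM (SD, n = 3), and the log2 fold change was -0.13 (SE 0.07, 95% interval -0.29 to 0.03, edgeR adjusted p = 0.954). With the block the adjusted p was 0.0997. The exact permutation test gave p = 0.2.

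CLK4, the closest relative of CLK1 in sequence, had the lowest counts of the family. Libraries 1, 2 and 3 of the LMB group had 20.9, 19.8 and 19.8 CPM, and libraries 1, 2 and 3 of the LMB+auxin group had 19.2, 16.2 and 17.8 CPM. The 3 libraries with auxin were below the 3 without, by a small margin. The log2 fold change was -0.19 (SE 0.09, 95% interval -0.39 to 0.02), with an adjusted p of 0.954 in edgeR without and 0.106 with the block, and an exact permutation p of 0.1. The difference within replicate numbers 1, 2 and 3 was -0.12, -0.29 and -0.15 on the log2 scale.

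CLK2 differed by less than the spread between its libraries. In the LMB group, libraries 1, 2 and 3 had 25.6, 22.9 and 24.1 CPM, and libraries 1, 2 and 3 of the LMB+auxin group had 25.5, 24.3 and 23.3 CPM. The groups overlapped, with 1 of 3 replicate numbers higher with auxin. The log2 fold change was 0.01 (SE 0.08, 95% interval -0.17 to 0.19, edgeR adjusted p = 0.993). The intervals of CLK1 and CLK2 did not reach the 1.3-fold threshold, which is 0.38 on the log2 scale, and that of CLK4 reached just past it on the lower side.

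**Figure D2:**
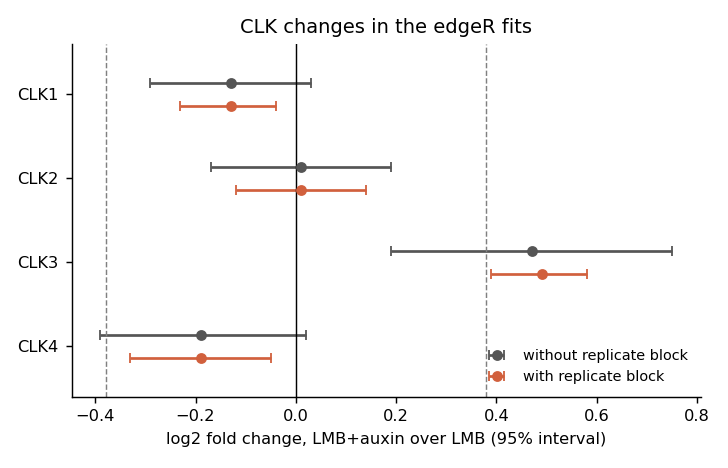
Log2 fold change of each CLK gene, LMB+auxin over LMB, with 95% intervals from edgeR without (grey) and with (orange) the replicate block. Dashed lines are the 1.3-fold threshold either way. The interval of CLK3 lies above 0 in both fits and above the upper dashed line, at 0.39 to 0.58, only with the block. That interval is narrower than the range of the differences within replicate numbers (0.38, 0.71 and 0.37). The values of the other 3 genes lie between the dashed lines.

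The difference between members was tested as a ratio of counts within each library, which does not depend on the scaling. Libraries 1, 2 and 3 of the LMB group had a log2 ratio of CLK3 to CLK1 of 0.54, 0.08 and 0.51, and those of the LMB+auxin group had 0.93, 0.97 and 1.09. Every library with auxin had a higher ratio than every library without, and the mean went from 0.38 ± 0.26 to 1.00 ± 0.08 (SD, n = 3), a difference of 0.62 or 1.53-fold. The log2 ratio of CLK3 to CLK2 was higher by 0.48, and the ratio of CLK4 to CLK3 was lower by a log2 difference of -0.68. Between the members other than CLK3 the differences were smaller: 0.14 for CLK2 over CLK1, -0.20 for CLK4 over CLK2 and -0.06 for CLK4 over CLK1. Of the 6 pairs, 5 had groups that did not overlap and an exact permutation p of 0.1, the smallest possible, or 0.12 after Benjamini-Hochberg adjustment over the 6 pairs. CLK4 over CLK1 overlapped (p = 0.2, adjusted 0.2, exact permutation test). The pairs share members, so they are not independent, and the share of other gene pairs with groups apart was not computed. With 3 libraries a group this test cannot pass 0.05.

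Per length, CLK1 or CLK3 was the most abundant member and CLK4 the least, with the first place depending on the length used. Divided by the union of all annotated exons, the level in LMB was 26.3 ± 0.62 CPM per kilobase for CLK1, 9.0 ± 1.68 for CLK3, 6.62 ± 0.368 for CLK2 and 2.55 ± 0.0764 for CLK4 (SD, n = 3). In LMB+auxin it was 24.1 ± 1.8 for CLK1, 12.5 ± 0.778 for CLK3, 6.66 ± 0.3 for CLK2 and 2.24 ± 0.186 for CLK4. On this scale the lowest library of CLK3, at 7.07 CPM per kilobase, was close to the highest of CLK2, at 7.0, while the other neighbours in the order were well apart. Divided by the MANE Select transcript, CLK3 came first, with 95.6 ± 17.8 CPM per kilobase in LMB and 133 ± 8.27 in LMB+auxin, against 73.0 ± 1.72 and 66.8 ± 5.00 for CLK1, and in LMB its lowest library, at 75.1, was close to the highest of CLK1, at 74.7. The union of CLK3 exons was 19697 bases and its MANE transcript 1854 bases, while those of CLK1 were 5117 and 1847 bases. The share of CLK3 in the summed level of the 4 genes was 20.1% in LMB and 27.5% in LMB+auxin by union length, and 50.6% and 60.9% by MANE length.

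**Figure D3:**
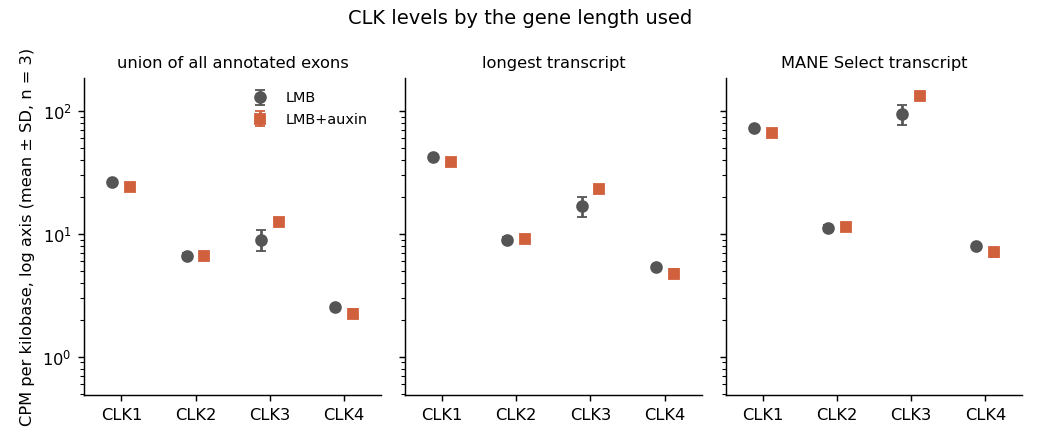
Level of each CLK gene in CPM per kilobase on a log axis, with 3 choices of gene length (mean ± SD, 3 libraries a group; grey circles LMB, orange squares LMB+auxin). CLK1 is the highest with the union of exons and the longest transcript, at 26.3 and 42.0 in LMB, and CLK3 with the MANE transcript, at 95.6 in LMB. CLK4 is the lowest in each panel.

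Genes related to the CLK kinases by function, by kinase family or by detained introns were described from 4 lists. None of their tested members was called by edgeR, DESeq2 or limma-voom, either without or with the replicate block. With TMM scaling replaced by library size alone, a setting chosen after seeing the data, edgeR with the block called 1 of them, SRPK3. SRPK, DYRK, HIPK and related kinases share substrates or kinase family with the CLKs, and all 16 were tested, with a median log2 fold change of -0.02 beside -0.00 over all tested genes. An unadjusted p below 0.05 was reached by 0 of the 16 in the fit lacking the block and by 2 in the other. SRPK3, an SR protein kinase, had 3.23 ± 0.806 CPM without and 2.36 ± 0.243 CPM with auxin, or -0.44 on the log2 scale (edgeR adjusted p = 0.954, 0.0622 with the block). DYRK2 had a log2 fold change of -0.12 and SRPK1, the main cytoplasmic SR protein kinase, of 0.10, each with an edgeR adjusted p of 0.954. The groups of DYRK2 did not overlap, with auxin lower, as in 6.63% of all tested genes.

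The SR proteins and SR-like factors are the substrates of the CLKs. Of 17, 16 were tested (SRSF12 was not), with a median log2 fold change of 0.04 and a range of -0.05 to 0.11. An unadjusted p below 0.05 was found for 0 of them in edgeR without the block and for 2 with it. The members with the smallest p were SRSF3, with 662 ± 37.3 CPM in LMB and 715 ± 49.5 in LMB+auxin (log2 fold change 0.11), TRA2A (0.10) and SRSF6 (0.09), each with an edgeR adjusted p of 0.954. Their groups overlapped. The phosphatases that remove the phosphates from splicing factors, their partners and the carriers that bring SR proteins into the nucleus made up 9 tested genes, with a median of 0.04, of which 1 had an unadjusted p below 0.05 in edgeR without the block and 3 with it. PPP1R10, a nuclear targeting subunit of protein phosphatase 1, had 110 ± 3.31 CPM in LMB and 97.1 ± 5.83 in LMB+auxin, or -0.18 on the log2 scale (edgeR adjusted p = 0.954, 0.0128 with the block), with every auxin library below every LMB library but a change too small for a call. PPP1R8, an inhibitory subunit of that phosphatase, and PPIG, a cyclophilin with an SR domain, each had a log2 fold change of 0.11 and an edgeR adjusted p of 0.954. The groups of PPIG did not overlap either, with auxin higher. Groups apart were found upward in 4.89% and downward in 6.63% of all tested genes.

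Other transcripts known for detained or retained introns were not called either. All 22 were tested, with a median log2 fold change of 0.03, 13 above 0 and 9 below, and an unadjusted p below 0.05 was found for 1 without and 5 with the block. ARGLU1, a splicing regulator, had 56.4 ± 1.22 CPM in LMB and 50.5 ± 1.89 in LMB+auxin, or -0.16 on the log2 scale (edgeR adjusted p = 0.954, 0.0737 with the block). MAT2A, which makes S-adenosylmethionine, had 186 ± 4.90 and 204 ± 5.22 CPM, or 0.13 in the other direction (edgeR adjusted p = 0.954, 0.0794 with the block). The groups did not overlap in 3 of the 22 genes, upward in MAT2A and MDM4 (log2 fold change 0.04) and downward in ARGLU1, beside 4.89% and 6.63% of all tested genes. CCNL2, a cyclin of splicing kinases, had a log2 fold change of -0.10.

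**Figure D4:**
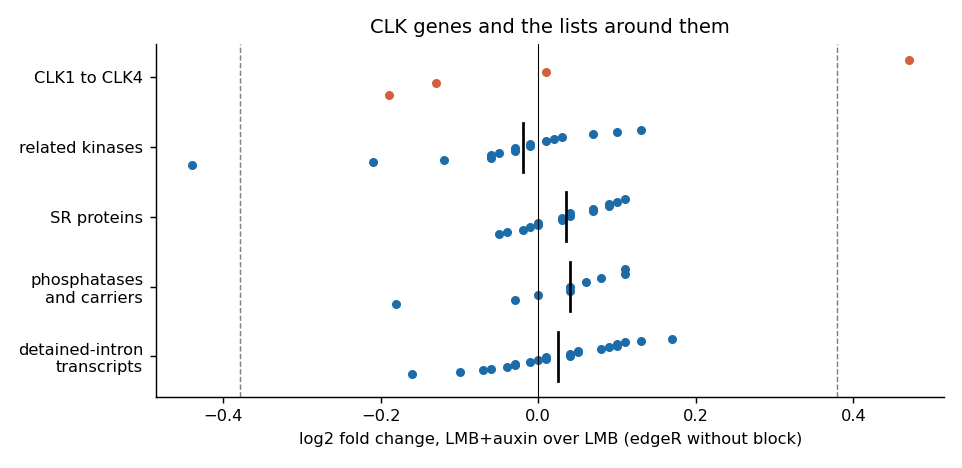
Log2 fold change, LMB+auxin over LMB, in edgeR without block for the 4 CLK genes (orange) and each tested gene of the 4 lists (blue), with list medians as black bars and the 1.3-fold threshold as dashed lines. The list medians run from -0.02 to 0.04. CLK3, at 0.47, and SRPK3, at -0.44, are the only points past the dashed lines, and neither was called in this fit.

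Values of genes around CLK3 are given because the groups of EDC3 and CYP1A1 did not overlap either, with auxin higher. Groups apart in that direction were found in 4.89% of all tested genes. Near CLK1, LINC01792, 118 kb from it, also had groups apart with auxin higher, at 1.36 ± 0.106 and 1.73 ± 0.116 CPM. Its log2 fold change was 0.34 (edgeR adjusted p = 0.954, 0.299 with the block, not called). The genes named here were picked after their values were seen. EDC3, which encodes an mRNA decapping factor, lies on the opposite strand and overlaps the end of the CLK3 gene record, sharing 701 exonic bases with it, none of them in the MANE transcript. In the LMB group, libraries 1, 2 and 3 had 72.4, 59.9 and 73.5 CPM, and libraries 1, 2 and 3 of the LMB+auxin group had 79.5, 78.9 and 80.0 CPM. The groups did not overlap and replicate 2 of LMB was again the lowest. The log2 fold change was 0.21 (edgeR adjusted p = 0.954, 0.00523 with the block), under the fold threshold. Whether strand was used in the counting is not known, so reads in the shared bases may count for both genes. The mean EDC3 level was 10.9 CPM higher with auxin, against 68.5 CPM for CLK3. Reads in the shared bases were not counted apart, so what they add to either difference was not tested.

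CYP1A1, a cytochrome P450 and a known target of the aryl hydrocarbon receptor, lies 74.1 kb beyond the end of the CLK3 gene record. Libraries 1, 2 and 3 of the LMB group had 111, 63.8 and 114 CPM, and libraries 1, 2 and 3 of the LMB+auxin group had 238, 208 and 199 CPM. All libraries with auxin were above all without, and LMB replicate 2 was the lowest for this gene as well. The log2 fold change was 1.16 (edgeR adjusted p = 0.644, 0.18 with the block, not called), and the differences within replicate numbers 1, 2 and 3 were 1.09, 1.71 and 0.80 beside 0.38, 0.71 and 0.37 for CLK3. Whether the CLK3 difference is tied to that of its neighbours was not tested. CYP1A2, a related cytochrome P450 gene 103 kb beyond CLK3, had 1.39 ± 0.873 CPM without and 1.7 ± 0.895 CPM with auxin, and its groups overlapped. Its log2 fold change was 0.31 (95% interval -0.97 to 1.58, edgeR adjusted p = 0.966, 0.354 with the block), with 3 of 3 replicate numbers higher. ARID3B, which ends 0.369 kb before CLK3, had a log2 fold change of 0.02, and CSK, 137 kb beyond it, of 0.01. Within 250 kb of CLK3, 13 genes were tested, with a median log2 fold change of 0.04. The same window held 9 tested genes with a median of 0.11 around CLK1, 25 with a median of -0.06 around CLK2 and 2 with a median of 0.06 around CLK4.

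**Figure D5:**
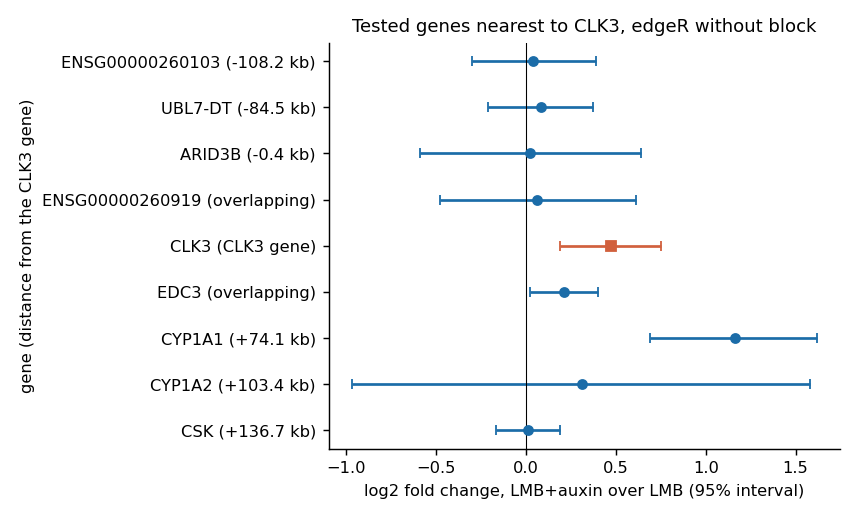
Log2 fold change with 95% interval (edgeR without block) of CLK3 (orange) and the tested genes that overlap it or lie nearest to it (blue), ordered by distance from the CLK3 gene record in kilobases. The intervals of CLK3, EDC3 and CYP1A1 lie above 0, with values of 0.47, 0.21 and 1.16, and the other intervals include 0.

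The promoter of CLK3 is shown as that of the member that was called with the block. It is the 250 bases before the RefSeq start of the main transcripts (GRCh38.p14), 5′ to 3′, with the core of the xenobiotic response element, GCGTG or its reverse complement CACGC, in capitals.
CLK3 chr15:74615586-74615835 (+ strand): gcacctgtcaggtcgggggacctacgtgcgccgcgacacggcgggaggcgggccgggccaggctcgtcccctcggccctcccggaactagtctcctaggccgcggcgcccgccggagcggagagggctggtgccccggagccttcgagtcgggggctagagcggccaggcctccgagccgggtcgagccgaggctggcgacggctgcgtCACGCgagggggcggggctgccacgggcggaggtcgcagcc
The window held 1 such core, as did that of another RefSeq start of CLK3 (chr15:74608122-74608371) and that of CLK4. The windows of CLK1 held 2 each and that of CLK2 none. The core was present on either strand in 32.2% of 35116 such windows. The CLK3 window shown also held 1 cAMP response element half-site (TGACG or its reverse complement), found in 21.2% of windows. It held 0 E-boxes (CACGTG), found in 6.34%. The motifs, and which of them to mark, were not part of the planned results. Whether any of these motifs bears on the CLK3 difference was not tested.

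Genes that overlap a CLK gene, other than EDC3, and the CLK pseudogenes had few counts. HCN3 overlaps the CLK2 gene record on the opposite strand, shares no exon bases with it and had a mean count of 140.8. On the opposite strand of CLK3, the long noncoding genes ENSG00000260919 and ENSG00000275527 had 24 to 37 and at most 1 count a library. A Y_RNA gene in an intron of CLK1 had 9 to 23 counts and RN7SKP70 within CLK4 had 10 to 23, against 474 to 715 for CLK4 itself. RN7SKP70, on the same strand, shared 161 exonic bases with CLK4, and ENSG00000275527 shared 479 with CLK3. None of these bases lay in a MANE transcript. The processed pseudogene CLK2P1, on chromosome 7, had at most 3 counts in a library and CLK3P2, on chromosome 1, had 0 in each.

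The likeness of the CLK genes to each other over the 6 libraries, as Pearson's r of log2 CPM, was 0.91 between CLK1 and CLK4, -0.40 between CLK1 and CLK3, and -0.49 between CLK3 and CLK4. CLK2 had r of 0.35, 0.43 and 0.24 with CLK1, CLK3 and CLK4. Among 12479 genes with a mean of at least 5 CPM, the genes most like CLK1 were RAB11FIP2, VCPIP1 and PCF11, a factor of transcript cleavage and polyadenylation, each with r of 0.98. Those most like CLK4 were ZBTB6, FKBPL and PNRC2, each with r of 0.99. Those most like CLK3 were ENSG00000229257 (r of 0.99), PARG, which removes poly(ADP-ribose), and HHLA3 (0.98 each), and those most like CLK2 were BRD9 and PLEKHH1 (0.99 each) and WARS2-AS1 (0.97). These are descriptions over 6 libraries that share their scaling and replicate numbers.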

How the data were processed

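The 4 CLK genes and all lists were chosen with earlier results of these data known. The authors removed ribosomal RNA, made TruSeq total RNA libraries, aligned reads with STAR (2.6.1c in the submitters' processing notes, after CASAVA 1.8.2) to GRCh38 and counted them per gene with featureCounts 1.5.2 on Ensembl 87. The deposited values are raw counts, not normalized. The strand setting and the treatment of multiply mapped reads are not given in the sources used here. On the table, genes nested in a gene of high count had a median count per base of 1.40 relative to it on the opposite strand (203 pairs) and 0.504 on the same strand (91 pairs). Reads were thus not scarce in nested genes on the opposite strand, which counting of sense reads alone would give only their own reads. How many were their own was not measured, so these medians do not settle whether strand was used. Symbols, exons and coordinates came from GENCODE 44 on the same assembly, with symbols for 98.1% of genes. Promoters came from RefSeq (GRCh38.p14), and those of the 4 CLK genes were identical to the genome used.

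Genes with CPM above 1 in at least 3 libraries were kept. Counts were tested with edgeR 4.0.16 (TMM, estimateDisp, robust glmQLFit, glmQLFTest; R 4.3.3) with Benjamini-Hochberg adjustment over 16974 genes. Calls needed an adjusted p below 0.05 and a difference of 1.3-fold or more. Log2 CPM used a prior count of 2. The study describes independent biological replicates. Deviations of same-numbered libraries from their group means correlated at 0.53, 0.69 and 0.27 for numbers 1, 2 and 3, so the numbers were taken to pair the libraries, and the block was fitted as an alternative. The other alternatives were DESeq2 1.42.0, the test of the authors, limma-voom 3.58.1, other scalings, no filter, leaving out libraries, and other gene lengths. The limma-voom, library size, DESeq2 size factor and unfiltered fits with the block were chosen after seeing the data. Scripts were tested on simulated data. Single values used exact two-sided permutation tests (scipy 1.17.1). Named genes were the 4 members, in each list the called genes or otherwise the 3 with the smallest unadjusted p without the block, and for each CLK gene the 3 most correlated genes of at least 5 CPM. Genes overlapping a CLK gene and CLK pseudogenes were named with counts. CYP1A1, CYP1A2, ARID3B, CSK, LINC01792 and MDM4 were named outside this rule, after their values were seen.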

Additional observations from a re-analysis of the deposited data

How the results depend on the processing

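CLK1, CLK3 and CLK4 kept their direction under every alternative run, and neither CLK1 nor CLK4 was called in any. With the replicate block, edgeR gave CLK3 a log2 fold change of 0.49, and so did DESeq2 with the block (adjusted p = 0.00209), DESeq2 size factors with the block and the unfiltered fit with the block. Limma-voom with the block gave 0.48, library size alone with the block 0.47, and edgeR without filter or block 0.47 (adjusted p = 1.2e-05), all called. Without the block, DESeq2 gave CLK3 an adjusted p of 0.206, limma-voom 0.951 and the other scalings 0.926 to 0.988, none called. Leaving out 1 library gave 0.33 to 0.55, none called, and leaving out a pair in the fit with the block gave 0.38 to 0.55. Beside 1 gene called over all genes by edgeR without the block, the count was 202 with it, 133, 158 and 134 when replicate 1, 2 or 3 of both groups was left out of that fit, 11 by DESeq2, 31 by DESeq2 with the block, 39 with no filter, and 0 with library size alone (edgeR, 736 genes at an unadjusted p below 0.05), and 0 to 5 when 1 library was left out. With the block it was 185 by limma-voom, 253 with library size alone (1 of them a related kinase), 197 with DESeq2 size factors and 211 with no filter. The causes of these shifts were not tested. Apart from CLK3, and SRPK3 with library size alone, adding the block changed no call among the 4 CLK genes and the lists. CLK1 without the replicate 1 pair had an adjusted p of 0.00137 in the fit with the block and a log2 value of -0.19, short of the fold threshold.

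The sign of CLK2 was not settled. It turned to -0.0028 with library size alone, -0.0034 with library size alone and the block, and -0.02 in the fit with the block without replicate 2. Leaving out 1 library gave -0.02 to 0.05. The list median of the SR proteins was 0.05 with the block when replicate 2 or 3 was left out, 0.04 by DESeq2 and with its size factors, 0.03 with the upper quartile, 0.02 with library size alone with or without the block, and 0.03 to 0.09 without 1 library. Without 1 library the medians ran from -0.03 to 0.01 for kinases, 0.02 to 0.11 for phosphatases and carriers, and 0.01 to 0.03 for detained-intron transcripts. Levels in CPM per kilobase depended on the length. By MANE transcript they were 73.0 in LMB and 66.8 in LMB+auxin for CLK1, 11.2 and 11.3 for CLK2, 95.6 and 133 for CLK3, and 8.05 and 7.08 for CLK4. By longest transcript they were 42.0 and 38.4 for CLK1, 8.96 and 9.02 for CLK2, 16.9 and 23.4 for CLK3, and 5.42 and 4.76 for CLK4. CLK2 and CLK4 had 474 to 870 counts a library, fewer than CLK1 and CLK3. The SE in edgeR without the block was nevertheless largest for CLK3, at 0.12, against 0.08 for CLK2 and 0.09 for CLK4.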
